A study of Mus musculus with 7 samples.

Results

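The interferon-stimulated genes described here are 44 mouse genes, chosen by name from the genes that type I or type II interferon is known to induce, out of 39179 gene identifiers in the deposited table. All 44 were found by symbol, and all 44 passed the filter on low values (at least 10 normalized read counts in at least 3 libraries). RNA was sequenced from LSK cells, the lineage-negative, Sca-1-positive, Kit-positive fraction of bone marrow that holds blood stem cells and multipotent progenitors, sorted from C57/BL6 mice 7 weeks old. The 4 control libraries came from Vav1Cre mice, and the genotype of the mice behind the 3 Jmjd1c libraries was Jmjd1c f/f Vav1Cre. In the latter, Cre recombinase acts on a floxed gene for JMJD1C, a protein of the histone H3 lysine 9 demethylase family. Both groups carry Vav1Cre, whose promoter is active across blood cells, so the deletion is not limited to the sorted fraction. The labels do not say whether the controls carry floxed alleles, nor which animals gave which library, so p-values rest on variation among these libraries, part of which may be technical. Reads assigned to genes ran from 4303712 to 6436519 per library.

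Interferons are secreted proteins that warn cells of infection. Type I interferons bind the IFNAR1-IFNAR2 receptor, whose kinases JAK1 and TYK2 activate transcription factors in the cytoplasm. A complex that contains IRF9 then binds the interferon-stimulated response element (ISRE) in promoters, while interferon gamma acts at gamma-activated sites (GAS). The induced proteins sense viral nucleic acid, degrade or sequester viral RNA, block entry and budding, or tag proteins with the ubiquitin-like modifier ISG15. Blood stem cells are known to respond to interferon, and Sca-1, used in the LSK gate, is itself encoded by the interferon-inducible gene Ly6a.

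Promoter sequence was available from RefSeq (GRCm38.p6) for 34 of the 44 genes, and the 250 bases before the start of each were searched on both strands for the ISRE core, GAAA followed by any 2 bases and GAAA. A match was present in 14 of the 34 (41.2%), against 3.46% of 27025 gene symbols with a promoter in the same table. The 6 windows below show what the match looks like in genes with different values in the libraries described further on: Isg15, Ifit1, Ifit3, Rsad2 and the guanylate-binding protein gene Gbp7, whose highest value was in control 4, and Oas3, whose highest value was in a Jmjd1c library. They lie before the start of each gene at chr4:156200862-156200921 (minus strand, Isg15), chr19:34640760-34640819 (plus, Ifit1), chr19:34583348-34583407 (plus, Ifit3), chr12:26456538-26456597 (minus, Rsad2), chr5:120777700-120777759 (minus, Oas3) and chr3:142530258-142530317 (plus, Gbp7). Each is written 5′ to 3′ on the strand of its gene, with the bases that match the core or its reverse complement in capitals, including matches that run together.
Isg15: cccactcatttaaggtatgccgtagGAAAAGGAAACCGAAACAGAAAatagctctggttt
Ifit1: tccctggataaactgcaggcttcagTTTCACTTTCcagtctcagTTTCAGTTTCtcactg
Ifit3: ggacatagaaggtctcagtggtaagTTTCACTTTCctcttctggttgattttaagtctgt
Rsad2: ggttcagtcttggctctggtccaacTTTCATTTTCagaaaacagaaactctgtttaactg
Oas3: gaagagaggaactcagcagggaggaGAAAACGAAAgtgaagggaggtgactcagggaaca
Gbp7: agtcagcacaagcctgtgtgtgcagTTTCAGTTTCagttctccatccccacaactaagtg
The letters of a GAS, TTCNNNGAA, were present in 7 of the 34 (20.6%), Irf1 and Samhd1 among them, against 8.13% of all symbols. Of these, 4 genes (Bst2, Gbp7, Igtp and Oas1a) held both, and in 1 of the 4 a match of one motif shared bases with a match of the other. A match is a description of the letters in the window and not evidence of binding.

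The targeted gene was lower in the libraries labelled Jmjd1c. It stood at 488 ± 30.4 normalized read counts in controls (SD, n = 4) and 264 ± 26.3 in Jmjd1c libraries (SD, n = 3), a log2 difference of -0.89 (adjusted p = 0.00407, limma), and an exact two-sided permutation test over the 35 splits gave p = 0.0286, the smallest it can give. The labels do not name the floxed exons, so how many of these reads come from outside them is not known. Kit, Ly6a and the other 8 markers of the gate or of stem and multipotent progenitor cells were present in every library. Among the controls, control 4 stood apart in macrophage markers: the 12 examined summed to 9126 there and to between 2353 and 3487 in controls 1 to 3. Jmjd1c 3 differed in another way, with 2767 normalized read counts of Xist, the RNA of the inactive X chromosome, against 4.14 to 9.32 in the other 6 libraries, and 0 for the 4 Y-linked genes examined. Results that rest on control 4 are given with and without it.

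RNA of the whole set was present in the sorted samples of both genotypes, at levels that spanned a wide range. Per kilobase of exon, averaged over the 7 libraries, Ifitm2 stood at 4766 normalized read counts and Ifitm3 at 3574, above 99.7% and 99.6% of tested genes. Ifitm1 followed at 1387. These 3 encode small membrane proteins that hinder the fusion of enveloped viruses with the cell. Next on the same per-kilobase scale came Ifi27 at 638, Lgals3bp at 561, Bst2 at 475 and Rtp4 at 451. The lowest were Mx2 at 11.0 and Parp12 at 14.3, with Mx1 at 22.9 and Parp14 at 26.3. Mx1 and Mx2 belong to a family of dynamin-like GTPases that act against viral ribonucleoproteins, but the annotation lists Mx2 as a polymorphic pseudogene and common laboratory strains are known to carry defective alleles of both genes. The regulators and sensors lay between these ends: Irf1 at 244, Irf9 at 186 and Irf7 at 181 per kilobase, and the RNA helicase gene Ddx58, which encodes RIG-I, at 97.9. Copies with near-identical sequence can split or lose reads (Ifit3 and Ifit3b, Gbp3 and Gbp7, Ifitm2 and Ifitm3, the Oas1 family), so the levels of these genes are less certain.

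**Figure D1:**
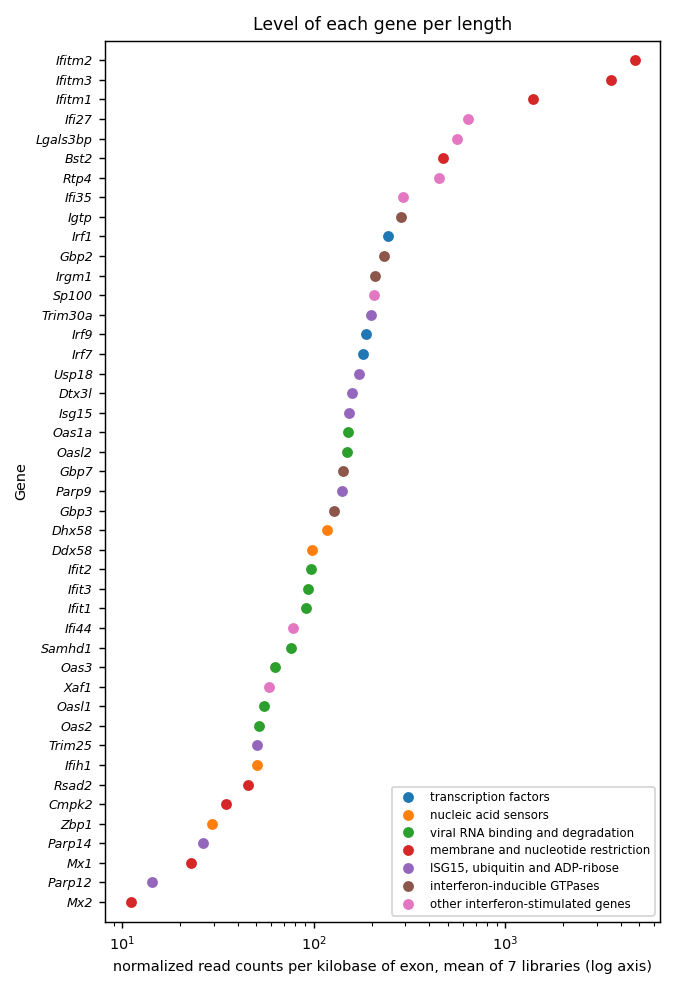
Level of each of the 44 genes as normalized read counts per kilobase of exon, mean of 7 libraries, on a log axis, coloured by the role of its product. Ifitm2 (4766), Ifitm3 (3574) and Ifitm1 (1387) stand above the rest, and Mx2 (11.0) is lowest.

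The design compares Jmjd1c with control LSK cells. None of the 44 genes passed an adjusted p of 0.05 in limma's moderated test on log2(value + 1), where 231 of 12813 tested genes did (1.8%). None passed in edgeR's quasi-likelihood test on the read counts either (1.82% of tested genes did), and 1, Oas3, passed in DESeq2 (4.6% of tested genes did). At an unadjusted p under 0.05 there were 6 of 44, with Oas3, Cmpk2 and Dtx3l above 0 and Irgm1, Parp9 and Parp14 below 0, a share of 13.6% beside 19.7% of all tested genes. The log2 difference was below 0 for 31 of the 44 (70.5%) and for 51.5% of all tested genes, with medians of -0.093 and -0.008. Without control 4 the median of the 44 was -0.022, with 27 below 0, and 1 gene, Oas3, was called (1.58% of tested genes were).

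The 95% intervals give a range for each difference, resting on variation among these libraries alone. They lay within 1.5-fold in either direction for 34 of the 44 genes, beside 7986 of the 12813 tested genes. Within 2-fold lay 42 of the 44, beside 11104 of the 12813. The members whose intervals reached past 2-fold were Ifit3 and Mx1, those of the 44 with the widest spread among controls. All libraries of 1 group lay above all libraries of the other for 1 gene in the direction of Jmjd1c, Dtx3l (9.74% of tested genes did so), and for 1 gene in the direction of control, Parp9 (7.1% of tested genes did so).

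**Figure D2:**
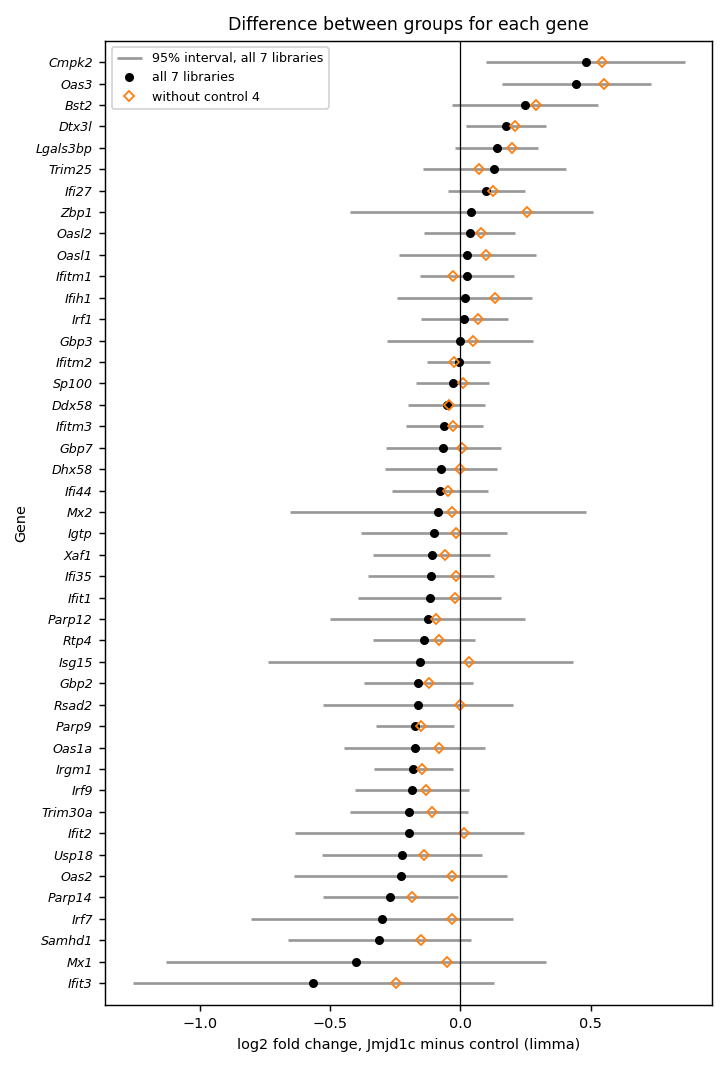
Log2 difference, Jmjd1c minus control, for each of the 44 genes (limma): filled circles and grey 95% intervals use all 7 libraries, and open diamonds leave out control 4. The points run from -0.56 for Ifit3 to 0.48 for Cmpk2, and for Mx1, Irf7 and Ifit2 the diamonds lie at -0.051, -0.034 and 0.015.

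The 3 transcription factors of the set did not differ between groups beyond their spread. Irf1, an early interferon-induced factor, was at 936, 985, 873 and 1078 normalized read counts in controls 1 to 4 and 989, 993 and 943 in the Jmjd1c libraries. Its Jmjd1c values lay inside the range of the controls, with a log2 difference of 0.01 (SE 0.0763, adjusted p = 0.937, limma). Irf7, which amplifies the type I response, was at 533, 676, 582 and 1242 in controls and 658, 523 and 567 in Jmjd1c libraries. Control 4 alone stood high, and the other 6 libraries overlapped: the log2 difference was -0.30 (SE 0.229, adjusted p = 0.494, limma) with control 4 and -0.034 without it. Irf9, the DNA-binding part of the complex at the ISRE, was at 892, 1162, 1008 and 1173 in controls and 1015, 867 and 901 in Jmjd1c libraries. Controls 2 and 4 were highest and the groups overlapped, with a log2 difference of -0.19 (SE 0.0996, adjusted p = 0.324, limma). The Irf7 gene overlaps Phrf1 on the opposite strand and Irf9 overlaps Rnf31 on the same strand in the annotation, so some reads may belong to the neighbour.

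Of the 4 sensors of viral nucleic acid, none had an unadjusted p under 0.05. Ddx58 ran from 643 to 723 normalized read counts over the 7 libraries, with overlapping groups. Ifih1, which encodes the long-RNA sensor MDA5, was at 519 in control 4 and between 363 and 433 in the others, and Zbp1, a Z-form nucleic acid sensor, was at 156 in control 4 and between 80.8 and 119.5 in the others.

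The 9 genes whose products bind or degrade viral RNA included Ifit3, which had the lowest log2 difference of the 44, and Oas3, which had the second highest. Oas3, a synthase of the 2-5A messenger that switches on RNase L, was at 339, 407, 316 and 470.4 normalized read counts in controls and 459, 564 and 529.5 in Jmjd1c libraries. The 3 Jmjd1c values exceeded 3 of the 4 controls, and control 4 lay just above Jmjd1c 1. The log2 difference was 0.45 (SE 0.13, adjusted p = 0.0984, limma), the smallest adjusted p among the 44. Leaving out control 4 gave 0.55 (adjusted p = 0.035, limma), and DESeq2 with all libraries gave 0.43. Oas2 and Oas1a, its neighbours on chromosome 5, had values that overlapped between groups, with Oas2 at 179 to 362 in controls and 196 to 218 in Jmjd1c libraries.

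Ifit3, which encodes a partner of the cap-sensing protein IFIT1, was at 106, 199, 131 and 340.2 normalized read counts in controls and 139.8, 95.8 and 123 in Jmjd1c libraries. Control 4 was the highest, control 2 next, and controls 1 and 3 lay among the Jmjd1c values. The log2 difference was -0.56 (SE 0.316, adjusted p = 0.346, limma), and -0.246 without control 4. Ifit1 itself was at 223, 249, 226 and 305 in controls and 204, 233 and 254 in Jmjd1c libraries. The groups overlapped, with a log2 difference of -0.12 (SE 0.124, adjusted p = 0.633, limma). It was -0.020 without control 4, -0.034 without Jmjd1c 1 and -0.191 without Jmjd1c 3.

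Of the 8 genes that act at membranes or on nucleotides, Cmpk2 had the largest difference. It encodes a mitochondrial nucleotide kinase and was at 121, 130.3, 101 and 139.9 normalized read counts in controls and 131, 172 and 222 in Jmjd1c libraries. Jmjd1c 2 and 3 were above every control, and Jmjd1c 1 was inside the control range. The log2 difference was 0.48 (SE 0.174, adjusted p = 0.166, limma), and it passed the threshold when Jmjd1c 1 was left out, at 0.67 (4.87% of tested genes did so). Without Jmjd1c 3 it was 0.293 and did not pass. Rsad2, which encodes viperin, starts 12752 bases from Cmpk2 on the opposite strand and was at 162, 192, 195 and 283 in controls and 201, 161 and 186 in Jmjd1c libraries. The neighbours thus had different profiles: Cmpk2 was highest in Jmjd1c 3 and Rsad2 in control 4.

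Bst2, which encodes tetherin, a protein that holds budding virions at the cell surface, was at 391, 462, 309 and 432 normalized read counts in controls and 420.4, 482 and 506 in Jmjd1c libraries. Its groups overlapped, with a log2 difference of 0.25 (SE 0.127, adjusted p = 0.306, limma), or 0.131 without control 3. The most highly expressed members were the Ifitm genes. Ifitm1 was at 1566, 1452, 1668 and 1344 in controls and 1638, 1411 and 1545 in Jmjd1c libraries, a log2 difference of 0.02 (SE 0.0825, adjusted p = 0.898, limma). Ifitm2 was at 3203, 3166, 3127 and 3015 in controls and 3231, 3061 and 3047 in Jmjd1c libraries, a log2 difference of -0.01 (SE 0.0552, adjusted p = 0.959, limma). Ifitm3 was at 2328, 2563, 2332 and 2650.4 in controls and 2386, 2236 and 2467 in Jmjd1c libraries, a log2 difference of -0.06 (SE 0.0675, adjusted p = 0.648, limma). The groups overlapped in all 3. The sign changed with the library left out for Ifitm1 and Ifitm2, with quantile normalization for Ifitm2, and with the GC and length correction for Ifitm2 and Ifitm3.

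The 8 genes of the ISG15, ubiquitin and ADP-ribose group held 3 of the 6 smallest p-values. Isg15, the ubiquitin-like modifier, was at 86.4, 147, 82.8 and 171 normalized read counts in controls and 134, 76.3 and 110.4 in Jmjd1c libraries. Both groups were split between low and high libraries, and the log2 difference was -0.15 (SE 0.268, adjusted p = 0.789, limma), or 0.033 without control 4. Usp18, the protease that removes ISG15 and damps the receptor, was at 400.0, 617, 438 and 601 in controls and 429, 449 and 420.3 in Jmjd1c libraries. Controls 2 and 4 were high and the rest lay close together, with a log2 difference of -0.22 (SE 0.14, adjusted p = 0.403, limma). It was -0.139 without control 4, -0.126 without control 2 and -0.334 without control 1.

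Parp9 and Dtx3l encode a pair that works as one complex, an ADP-ribosyltransferase-family protein and an E3 ubiquitin ligase, and their genes start 681 bases apart on chromosome 16 with overlapping spans. Parp9 was at 666.4, 742, 726 and 753 normalized read counts in controls and 666.1, 625 and 627 in Jmjd1c libraries. Every Jmjd1c library was below every control, by a narrow margin at Jmjd1c 1, and the log2 difference was -0.17 (SE 0.069, adjusted p = 0.199, limma). Dtx3l was at 801, 876, 840.4 and 919.9 in controls and 920.2, 969.6 and 1019 in Jmjd1c libraries. Here every Jmjd1c library was above every control, again narrowly at Jmjd1c 1, and the log2 difference was 0.17 (SE 0.0698, adjusted p = 0.201, limma). The log2 ratio of Dtx3l to Parp9, a pair chosen after its values were seen and so given with no test, was 0.265, 0.239, 0.211 and 0.289 in controls and 0.466, 0.632 and 0.701 in Jmjd1c libraries. Whether the counting used strand is not given in the sources used here, and without it reads from the shared span cannot be assigned to one gene. Parp14, another gene of that protein family on the same chromosome, was at 222, 263, 259.9 and 313 in controls and 238, 202 and 215 in Jmjd1c libraries. Its groups overlapped through control 1, with a log2 difference of -0.27 (SE 0.118, adjusted p = 0.238, limma).

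All 5 interferon-inducible GTPase genes, whose products attack the vacuoles of intracellular pathogens, had log2 differences below 0, from -0.18 to -0.0007, and none was called. Without control 4, 3 of the 5 were below 0. Irgm1, which is also known for its part in blood stem cell maintenance, was at 1269.7, 1329, 1159 and 1368 normalized read counts in controls and 1173, 1117 and 1098 in Jmjd1c libraries. Jmjd1c 1 lay above control 3, and the log2 difference was -0.18 (SE 0.0699, adjusted p = 0.19, limma). The other 7 genes of the set, among them Rtp4, Ifi44, Xaf1 and Sp100, had no unadjusted p under 0.05.

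**Figure D3:**
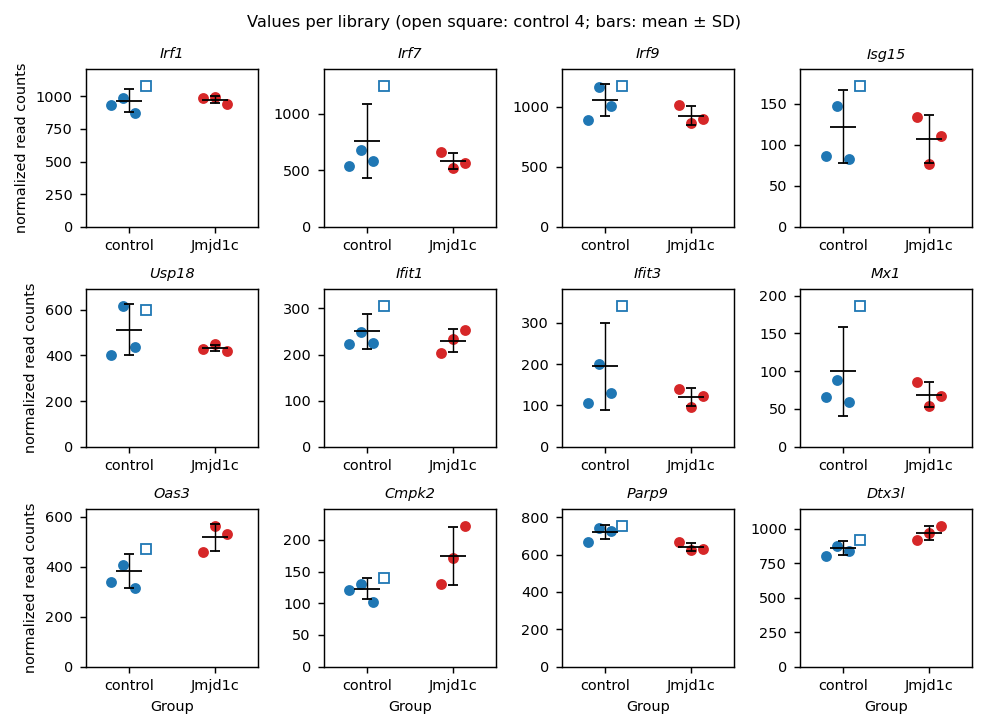
Normalized read counts per library for 12 of the genes, with the mean ± SD of each group (4 controls in blue, 3 Jmjd1c libraries in red) on axes that start at 0. Control 4, the open square, is the highest point for Irf7 (1242), Ifit3 (340.2) and Mx1 (186). For Oas3, where control 4 is at 470.4, Jmjd1c 2 (564) and Jmjd1c 3 (529.5) lie above it and Jmjd1c 1 (459) lies below.

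Within the control group, 1 library stood high for most of the set. For 29 of the 44 genes (65.9%) the highest of the 7 libraries was control 4, which was highest for 17.5% of all tested genes, and under other pseudocounts, TMM scaling, quantile normalization or a GC and length correction (all chosen after seeing the data) the number ran from 26 to 30. Jmjd1c 3 was highest for 5, control 2 for 4, control 3 for 3, and each other library for 1. Over all tested genes, Jmjd1c 3 was highest for 22.1%, control 2 for 12.2% and control 3 for 15.5%. The other libraries ran from 6.25% to 14.8%. Relative to the mean of controls 1 to 3, control 4 had a median log2 difference of 0.245 over the 44 genes, with 41 above 0, and of 0.001 over all tested genes, with 50.3% above 0. These are descriptions of 1 library, with no test.

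The genes furthest up in control 4 against controls 1 to 3, on the log2 scale, were Mx1 (1.40), Ifit3 (1.27), Irf7 (1.06), Zbp1 (0.85), Ifit2 (0.85), Oas2 (0.78) and Isg15 (0.75), followed by Samhd1 (0.64) and Rsad2 (0.63). Samhd1 encodes a dNTP-degrading enzyme that restricts retroviruses. Mx1 shows the pattern plainly, at 186 normalized read counts in control 4 and between 53.6 and 88.1 in the other 6 libraries. The 3 genes below 0 were Trim25 (-0.23), the ligase that ubiquitinates RIG-I, with Ifitm1 (-0.21) and Ifitm2 (-0.07). By role, control 4 was highest for 8 of 9 genes of viral RNA binding and degradation, 3 of 3 transcription factors, 3 of 4 sensors, 5 of 7 of the remaining genes, 3 of 5 GTPases, 4 of 8 in the ISG15, ubiquitin and ADP-ribose group and 3 of 8 that act at membranes or on nucleotides. Among genes with the ISRE core in their promoter window, such as Isg15 and Ifit3 above, the median of this difference was 0.342 over 14 genes, and it was 0.207 over the 20 without, with control 4 highest for 9 and 13 of them.

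**Figure D4:**
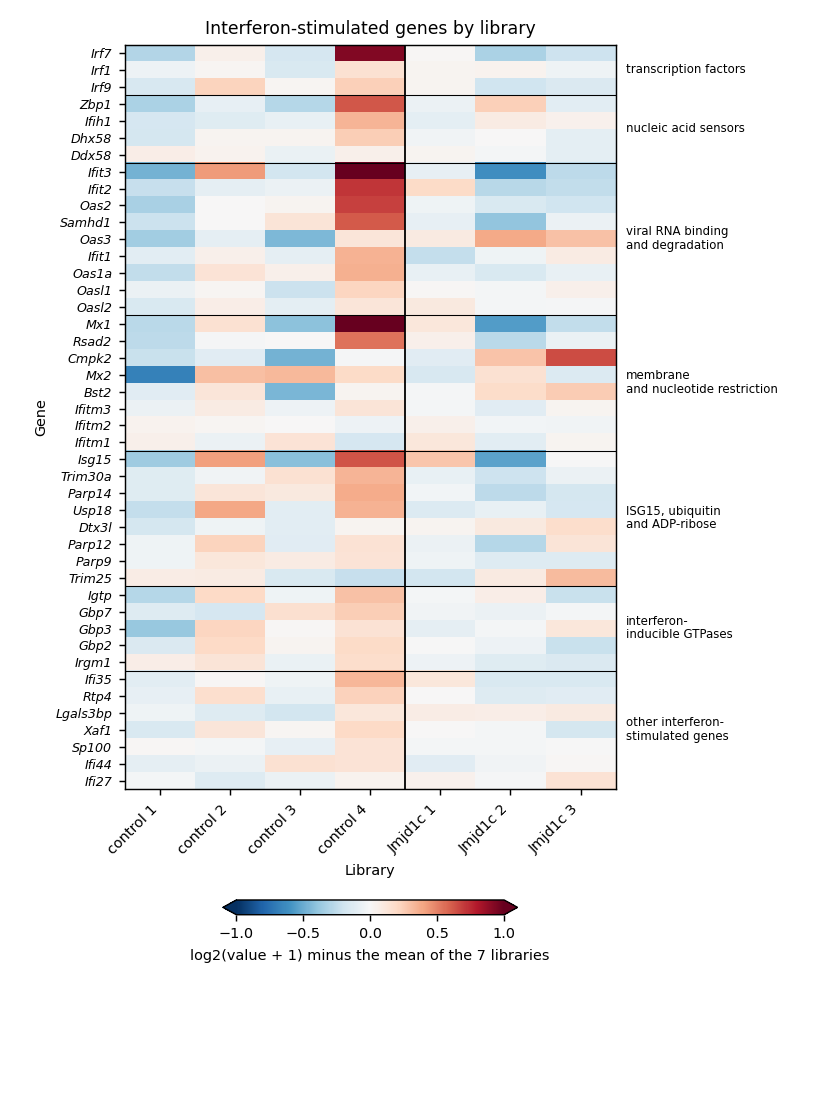
Log2(value + 1) of each of the 44 genes minus its mean over the 7 libraries, grouped by role and ordered within a role by control 4 minus controls 1 to 3; colours saturate at 1 and -1. Control 4 has the highest value for 29 of the 44 and its column is mostly red, and no single column among the Jmjd1c libraries is red or blue throughout.

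The summed markers of macrophages, monocytes and conventional dendritic cells were higher in control 4 than in the other libraries. Not all marker lists rose with it. The plasma cell and the basophil and mast cell sums were lowest of the controls there, at 7101 and 5605. T and NK cell (1746) and mature neutrophil (12784) sums lay inside the range of controls 1 to 3. B cell (549), erythroid (516) and megakaryocyte (762.5) sums were highest of the controls there. In normalized read counts summed over each list, the 12 macrophage markers stood at 2353, 3487, 3008 and 9126 in controls 1 to 4 and 3722, 2268 and 2847 in Jmjd1c libraries, with none at 0 in all libraries. All 11 of them that passed the filter were highest in control 4, including Adgre1 (F4/80), at 316, 489, 457 and 1381 in controls and 516, 294 and 279 in Jmjd1c libraries. The 6 monocyte markers summed to between 4604 and 5157 in controls 1 to 3, 8713 in control 4 and between 3155 and 4230 in Jmjd1c libraries. Most of the excess in control 4 was Ccr2, at 4229.6 there and between 1288 and 1682 in controls 1 to 3. Of these markers, Ly6c2, F13a1 and Fn1 were called lower in Jmjd1c libraries by limma, also without control 4. The 5 conventional dendritic cell markers summed to between 872 and 1238 in controls 1 to 3, 3518 in control 4 and between 565 and 1375 in Jmjd1c libraries. All 5 were highest in control 4, but most of each sum was Cd209a. That gene was at 746 to 1073 in controls 1 to 3, 3158 in control 4 and 417 to 1177 in Jmjd1c libraries. Plasmacytoid dendritic cells, known as strong interferon producers, had markers that summed to 223 in control 4 to between 230 and 278 in controls 1 to 3 and to 180, 115 and 43.4 in Jmjd1c libraries, with Klk1 at 0 throughout. Every Jmjd1c sum was below every control, but most of the sum was Ccr9. That gene was at 178 to 221 in controls and 141, 87.6 and 19.96 in Jmjd1c libraries. Its groups did not overlap, as for 7.1% of tested genes in that direction, and it was not called (adjusted p = 0.0967, limma). Siglech and Pacsin1 lay below the filter, and Cox6a2 overlapped between groups. Whether plasmacytoid dendritic cells were fewer was not tested. The 10 gate and progenitor markers summed to 25761 in control 4, the lowest of the 7, and to between 26725 and 30298 in the others. The part of these cell markers in the levels of the interferon-stimulated genes was not tested. In bulk RNA, more cells of a type and more RNA per cell cannot be told apart.

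**Figure D5:**
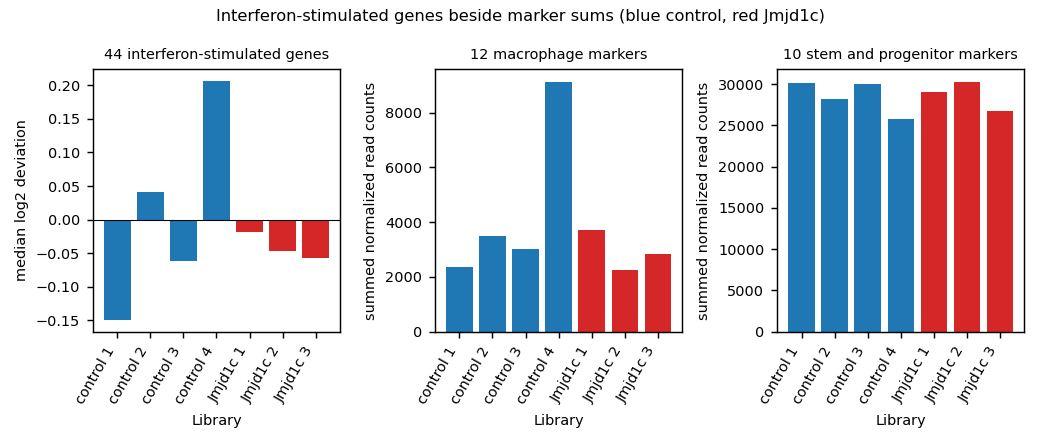
For each library, the median log2 deviation of the 44 genes from their means (left), the summed normalized read counts of 12 macrophage markers (middle) and of 10 gate, stem and progenitor markers (right), with bars from 0. Control 4 is highest in the first 2 panels (0.206 and 9126) and lowest in the third (25761).

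The median deviation of the 44 genes also placed the other libraries. On the log2 scale it was -0.149, 0.041, -0.062 and 0.206 in controls 1 to 4 and -0.018, -0.046 and -0.057 in the Jmjd1c libraries, so the 3 Jmjd1c medians lay inside the range of the controls. Control 1 was the lowest library for 11 of the 44 genes and Jmjd1c 2 for 15, beside 11.8% and 17.3% of all tested genes. Summed over the 44 genes, normalized read counts ran from 27388 to 33324 in controls and from 27879 to 29189 in Jmjd1c libraries.

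Upstream of these genes, 5 of 6 receptor genes and all 6 kinase and STAT genes passed the filter, while the ligand genes had few reads. The 8 interferon ligand genes examined had 10 reads in total among 36927646 reads in genes over the 7 libraries. Their normalized read counts summed to 5.25 in control 4 and to between 0 and 1.17 in each other library. Ifnb1 had a value above 0 in control 1 alone and Ifng in control 4 alone. A count of 0 allows up to 0.697 CPM in the shallowest library (3 counts), so low expression was not detectable at this depth. The type I receptor gene Ifnar1 was at 515 ± 73.8 normalized read counts in controls and 496 ± 17.1 in Jmjd1c libraries (SD, n = 4 and 3), and Ifnar2 was at 405 ± 49.98 and 476 ± 43.9, a log2 difference of 0.24 (adjusted p = 0.24, limma). The interferon gamma receptor genes Ifngr1 and Ifngr2 were at 1914 ± 289.9 and 329 ± 94.6 in controls and at 1649 ± 131 and 318 ± 39.4 in Jmjd1c libraries, ranges that overlapped for both genes.

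Of 99 other genes of the interferon pathway, 96 had a row and 84 passed the filter. None was called in limma or edgeR, and 4 of the 84 were called in DESeq2 (Stat3, Jak1, Shisa5 and Socs3), near the 4.6% of all tested genes. The last, a feedback inhibitor gene, was at 124 normalized read counts in Jmjd1c 3 and between 16.3 and 34.8 in the other 6 libraries. At an unadjusted p under 0.05 there were 16 of 84, 7 above 0 and 9 below, a share of 19.0% beside the 19.7% of all tested genes. The median log2 difference of the 84 was -0.042, with 51 below 0. Without control 4 it was 0.044, with 35 below 0. The groups did not overlap for 4 of the 84 with Jmjd1c higher and for 8 with Jmjd1c lower. That is a share of 14.3% beside 16.8% of all tested genes. Control 4 was the highest library for 39 of the 84, including 22 of 38 further interferon-induced genes.

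Among the kinases and STATs, Jak1, the kinase shared by all interferon receptors, was at 2335, 2337, 2421 and 2189.6 normalized read counts in controls and 2537, 2674 and 3094 in Jmjd1c libraries. Every Jmjd1c library was above every control, with a log2 difference of 0.25 (adjusted p = 0.1, limma). Stat3, a STAT better known from cytokines of the interleukin-6 family and named here after its values were seen, was at 834, 859, 766 and 824 in controls and 914, 989 and 1269 in Jmjd1c libraries, again without overlap (log2 difference 0.35, adjusted p = 0.0937, limma). Without Jmjd1c 3 it was 0.214. Stat2 was at 453 ± 71.1 in controls and 466 ± 17.4 in Jmjd1c libraries, and Tyk2 at 347 ± 32.1 and 386 ± 14.2 (SD, n = 4 and 3), with overlapping groups for both.

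Of the other IRF genes, Irf2, which encodes a repressor of interferon responses, was at 1234 ± 74.1 normalized read counts in controls and 1154 ± 48.6 in Jmjd1c libraries, Irf3, the factor that sensors activate, was at 334 ± 30.0 and 382 ± 42.3, and Irf8, a myeloid factor, was at 586 ± 185 and 538 ± 87.8 (SD, n = 4 and 3). The groups overlapped for all 3, and Irf8 was highest in control 4, at 841. The RNA-editing gene Adar was at 682 ± 42.8 and 707 ± 32.8, and Eif2ak2, which encodes the double-stranded RNA kinase PKR, at 369.5 ± 37.6 and 329 ± 5.99. For Eif2ak2 every Jmjd1c library was below every control, as for 7.1% of tested genes, and it was not called in limma. Ly6a, the Sca-1 gene of the sorting gate, was at 694, 871, 801 and 915 in controls and 839, 785 and 728 in Jmjd1c libraries, groups that overlapped. The feedback inhibitor gene Socs1 lay below the filter, at 0 to 4.8 in controls and 4.12 to 19.96 in Jmjd1c libraries.

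Below an adjusted p of 0.1, and named after their values were seen, were Nlrx1 and Tlr7 besides Stat3, 3 of the 84 genes, where 5.59% of all tested genes were. Nlrx1, which encodes a mitochondrial protein reported to restrain antiviral signalling, was at 89.6, 80.9, 80.4 and 88.3 normalized read counts in controls and 59.6, 62.9 and 55.2 in Jmjd1c libraries. Its groups did not overlap, and the log2 difference was -0.51 (adjusted p = 0.0793, limma). Tlr7, an endosomal sensor of single-stranded RNA, was at 153, 171, 177 and 218 in controls and 143, 121 and 123 in Jmjd1c libraries, also without overlap (log2 difference -0.47, adjusted p = 0.0913, limma). Shisa5, an interferon-induced gene, was at 2327, 2874, 3077 and 2977 in controls and 2373, 2307 and 2115 in Jmjd1c libraries. Its groups overlapped through control 1, and the log2 difference was -0.31 (adjusted p = 0.107, limma).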

How the data were processed

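LSK RNA-seq libraries, 4 control and 3 Jmjd1c, were compared. Libraries were made with a low-input cDNA kit, per the labels' protocols, and mm10, Trim Galore 0.2.8, STAR, HTSeq 0.6.1p1 and DESeq 1.18.0 are named in the submitters' processing notes. The deposited values are a signal, read counts the authors divided by a size factor per library. All of the deposited values (100%) were whole multiples of 1 read's value within 0.01 reads, so read counts were recovered. Gene symbols were found for 37607 of 39179 identifiers, and positions, exon lengths and GC content were taken from GENCODE M21. The test was limma 3.58.1 with trend (R 4.3.3) on log2(value + 1), for 12813 genes at 10 or more in at least 3 libraries, with Benjamini-Hochberg adjustment over all of them and a threshold of 0.05. Alternatives were edgeR 4.0.16 and DESeq2 1.42.0 on recovered reads, pseudocounts of 0.5 and 10, filters, scalings, a GC and length correction, a replicate block and each library left out. Members and lists were chosen with earlier results of these data known. Named genes are the members with the 6 smallest p-values and a list of regulators and effectors; others are named as chosen after their values were seen, and the remaining members of the set are given by their values. Pathway symbols Mb21d1, Gbp5 and Gbp6 were not matched. Code was tested on simulated data.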

Additional observations from a re-analysis of the deposited data

Results flagged for a closer look

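Within the 4 control libraries, 46 quantities were checked for 1 library far from the rest, by the gap to its nearest neighbour as a share of the group's range. A share above Dixon's 95% critical value was marked, which chance gives for about 1 in 20 groups. Of the 46, 3 passed, near the share that chance gives, and control 4 was the far library in all 3. The share was 0.863 for Ifit2, an RNA-binding antiviral gene, at 604 normalized read counts in control 4 against 312 to 352 in controls 1 to 3. It was 0.84 for Ifih1, the MDA5 gene, at 519 against 363 to 388. It was 0.833 for the sum of 12 macrophage markers, at 9126 against 2353 to 3487. Whether the macrophage markers and the 2 genes moved for the same reason was not tested.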

How the results depend on the processing

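The number of genes called over the whole table, 231 as reported, was 0 in limma without trend, 590 in DESeq2, 34 with the GC and length correction, 107 without both control 4 and Jmjd1c 3 (chosen after seeing the data) and 716 at an adjusted p of 0.1, and ran from 3 (without control 2, control 3 or Jmjd1c 2) through 9 (without Jmjd1c 3) and 68 (without control 1) to 624 (without Jmjd1c 1) as each library was left out. Members called, 0 as reported, numbered 1 in DESeq2, 1 at an adjusted p of 0.1 (Oas3 in both) and 0 to 1 as each library was left out (Oas3 without control 4, Cmpk2 without Jmjd1c 1). Other pathway genes called numbered 4 in DESeq2, 3 at an adjusted p of 0.1 and 0 to 2 as each library was left out (Shisa5 without control 1, Stat3 and Jak1 without Jmjd1c 1). Jmjd1c kept its log2 difference of -0.888 without trend but no longer passed the threshold.

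Whether replicate numbers pair the libraries is not known. Deviations from the group mean correlated at -0.152, -0.0021 and 0.0174 between same-numbered libraries. The largest value of any pair was 0.315, for control 4 and Jmjd1c 1. Such deviations cancel out within each group, so these values cannot decide whether the libraries were paired. With the replicate block, which leaves out control 4 because it has no partner, 14 genes were called, and 43 with block and GC and length correction, which also moved the members' median log2 difference from -0.093 to 0.026. No member was called in either fit.

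Signs changed for 22 of the 44 members in at least 1 alternative, none with a reported size above 0.196. With the block, and with block and GC and length correction, Isg15 was at 0.033 and 0.141, and between -0.334 and 0.069 as each library was left out. Ifit1 was at 0.004 with the GC and length correction and 0.094 with both. Irf1 was at -0.060 and -0.007 in these fits and between -0.034 and 0.067 as each library was left out, and Ifitm3 at 0.081 and 0.113. Ifitm1 was at -0.029 with the block and -0.037 without both libraries, and between -0.029 and 0.082 as each was left out. Ifitm2 was at 0.012 with quantile normalization, 0.077 with the GC and length correction and 0.057 with both, and between -0.034 and 0.008 as each library was left out. The cause was not tested. With 4 and 3 libraries at 4303712 to 6436519 reads, the 95% intervals of Mx1 and Ifit3 reach past 2-fold.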
